A study of Mus musculus with 12 samples.

Results

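To ask how far pretreatment with gRc changed the response of muscle cells to oxidative stress, the 3 gRc + H2O2 libraries were compared with the 3 H2O2 libraries, 6 of the 12 RNA-seq libraries of the study. gRc (ginsenoside Rc) is a steroid-like saponin of ginseng. The cells were C2C12, a mouse myoblast line, grown for 5 days in medium with 2% horse serum so that they fuse into myotubes. In the H2O2 group, cells received vehicle (0.02% DMSO) for 18 h and then 0.25 mM H2O2 for 6 h. In the gRc + H2O2 group, 10 µM gRc was given for the 18 h before the same 6 h of H2O2. For the gRc step, 1 label gives 24 h instead. The DMSO level is listed as 0.02% in every group. The vehicle group, 3 libraries of cells kept in vehicle for 24 h, set the level to which a full rescue would return, and the gRc group (10 µM for 24 h) entered the fit that estimates the spread. All groups are 1 cell line, and whether the replicates came from different dishes is not stated, and the error behind each p-value may therefore be technical.

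Hydrogen peroxide oxidizes thiols and other targets in the cell, and muscle cells answer with several transcription programs. The integrated stress response, through the factors ATF4 and CHOP, raises amino acid and redox genes when translation is slowed. NRF2 raises glutathione and thioredoxin enzymes, p53 answers DNA damage, and the AP-1 factors are induced within hours of many stimuli. A compound that weakens these programs would move their genes back toward the unexposed level, and this movement is called return here. Return describes RNA levels after 6 h of H2O2, and protection of the cells themselves is not measured by it. A return of 0% is the H2O2 level and a return of 100% is the vehicle level, on the log2 scale.

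The 6 libraries held 22561729 to 31409066 assigned fragments. Myotube genes dominated the markers, with a summed level for 7 myotube markers (among them Myog, Acta1 and Ckm) of 9900 to 12583 CPM, counts scaled to the library total, in the H2O2 libraries and 10503 to 13044 CPM in the gRc + H2O2 libraries. The 7 markers of undifferentiated myoblasts summed to 78.7 to 85.4 and 74.8 to 88.0 CPM, and the 5 of cycling cells to 153 to 185 and 161 to 207 CPM. Fibroblast markers reached 307 to 450 and 386 to 506 CPM. The 5 adipocyte markers stayed at or under 0.583 CPM and the 5 macrophage markers at or under 1.91 CPM, and Cfd was at 0 in all 6 libraries. The labels call the cells myoblasts, whereas these levels are those of myotube cultures. In bulk RNA, fewer cells of a type and less RNA per cell cannot be told apart.

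On the first principal component, the treatment did not place the 6 libraries in 2 separate sets. Over the 10842 genes whose log2 CPM averaged 2 or more, the treatment took 35.7% of the variance on 1 degree of freedom, the replicate number took 44.8% on 2, and the remainder was 19.6% on 2. Per degree of freedom the treatment took the most, 35.7%, against 22.4% for the replicate number and 9.78% for the remainder. The first principal component held 67.2% of the variance. H2O2 replicates 1 and 3 lay at 33.5 and 21.7 on it, gRc + H2O2 replicates 1 and 2 at -17.3 and -31.5, and between these were H2O2 replicate 2 at -8.32 and gRc + H2O2 replicate 3 at 1.95. Thus H2O2 replicate 2 lay on the side of the gRc + H2O2 libraries and gRc + H2O2 replicate 3 lay nearer to the other 2 H2O2 libraries than H2O2 replicate 2 did. Each gRc + H2O2 library nevertheless lay below the H2O2 library of the same number. The order on this axis went with base composition. The level of the 10% of genes lowest in GC content relative to the 10% highest was -0.34, 0.19 and -0.38 on the log2 scale in H2O2 replicates 1, 2 and 3, and 0.31, 0.42 and -0.20 in gRc + H2O2 replicates 1, 2 and 3. The part of this trend in single genes was not tested, but the counts of genes were recomputed with a correction for it.

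**Figure D1:**
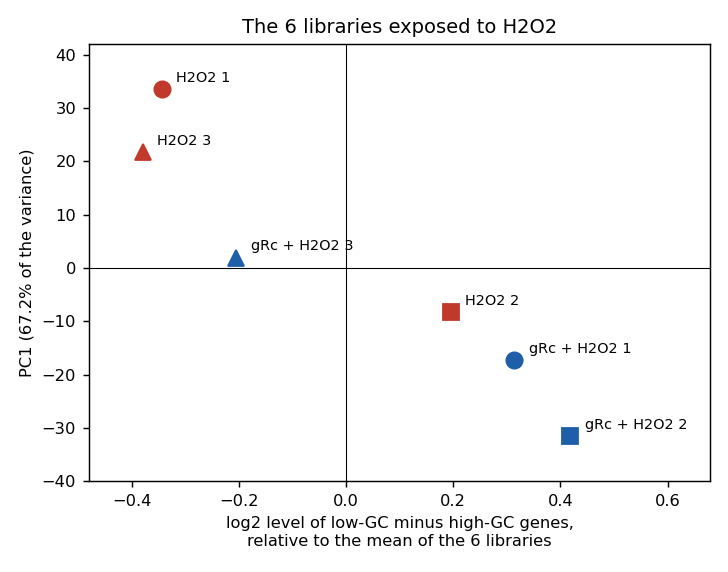
Position of the 6 libraries exposed to H2O2 on the first principal component (y axis, 67.2% of the variance of 10842 genes) against the log2 level of low-GC relative to high-GC genes (x axis, relative to the mean of the 6 libraries). Red points are H2O2, blue points gRc + H2O2, and the shape gives the replicate number; H2O2 replicate 2 (-8.32) and gRc + H2O2 replicate 3 (1.95) lie between the other 4 libraries.

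The number of genes that passed between gRc + H2O2 and H2O2 was 0 in the test used here and depended on the fit. With edgeR's quasi-likelihood test fitted on all 12 libraries, 0 of 14838 genes (0.0%) had an adjusted p under 0.05, and the smallest adjusted p was 0.922. An unadjusted p under 0.05 was found for 122 genes (0.822%). DESeq2 passed 2 genes (125 unadjusted), limma voom with quality weights passed 4 (5026 unadjusted) and limma on log2(TPM + 0.5) passed 0 (222 unadjusted). The share with a small p rested on which libraries set the spread: when edgeR was fitted on the 6 libraries alone, 2072 of 14283 genes (14.5%) had an unadjusted p under 0.05, and without vehicle replicates 1 and 3 and gRc replicate 3 the number was 2293 of 15398 (14.9%), but 0 genes passed in either fit, with smallest adjusted p of 0.320 and 0.111. With the replicate number as a block, an edgeR fit of the same 6 libraries, added after seeing the data, passed 1123 genes (545 higher and 578 lower), whereas the block on all 12 libraries passed 0 (194 unadjusted). No label says that a number marks a shared culture or day, and the check of the numbers on the libraries was borderline (given with the alternatives), so tests without the block are given from here on. The effect of gRc with H2O2 was also set against its effect without H2O2, and 0 genes passed this interaction (87 unadjusted).

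The median log2 difference over all genes was 0.00, and large differences were few. A fitted difference of at least 2-fold in either direction was seen for 337 genes, of which 89 averaged a log2 CPM of 2 or more. In all 3 libraries, 1141 genes (7.69%) were higher with gRc + H2O2 than in any H2O2 library, and 1131 genes (7.62%) were lower. These counts moved when 1 library was left out, which leaves 2 libraries in its group. Without H2O2 replicate 2 the groups of 7136 genes did not overlap, and without gRc + H2O2 replicate 3 those of 6769, against 2272 with all 6 libraries and 2731 to 3311 without any of the other 4.

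The genes that separated the groups most clearly on the higher side were led by Dhrs3, which reduces retinaldehyde to retinol and so lowers the supply of retinoic acid. Dhrs3 (chromosome 4, 144892827 to 144928209, GRCm38) stood at 6.76, 6.17 and 5.75 CPM in the H2O2 libraries and at 10.1, 10.2 and 7.28 CPM in the gRc + H2O2 libraries. All 3 gRc + H2O2 libraries were above all 3 H2O2 libraries, with replicate 3 the nearest to them. Vehicle libraries held 17.8, 15.9 and 16.0 CPM, so Dhrs3 fell with H2O2 by 1.41 on the log2 scale (edgeR adjusted p = 0.000325). The gRc + H2O2 difference was 0.56 ± 0.16 (log2, SE, n = 3 against 3), the unadjusted edgeR p was 0.00426 and the adjusted p was 0.922. Its return was 39.9%, with a Fieller 95% interval from 17.3% to 61.0%. Dhrs3 and the separating genes below were picked by the same difference that enters the return. An interval that leaves out 0% follows from that choice and is a description.

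Tmem252, which encodes a transmembrane protein, and Pcbp3, a poly(rC)-binding protein, had the next smallest p among the higher genes at or above that level. Tmem252 (chromosome 19) was at 4.01, 4.44 and 2.61 CPM with H2O2 and at 5.47, 6.66 and 5.47 CPM with gRc + H2O2, against 8.54, 8.78 and 8.31 CPM in vehicle. Pcbp3 (chromosome 10) was at 3.12, 2.68 and 3.06 CPM with H2O2 and at 3.94, 4.86 and 4.11 CPM with gRc + H2O2, against 4.05, 5.05 and 5.53 CPM in vehicle. Both fell with H2O2 in the test against vehicle, and their gRc + H2O2 libraries lay between the H2O2 and the vehicle libraries for Tmem252 and reached the vehicle range for Pcbp3. Their returns were 55.2% (19.4% to 92.5%) and 74.9% (24.0% to 148.1%), with unadjusted edgeR p of 0.0102 and 0.0141.

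The other 7 genes on the higher side were Naaa (a lysosomal amidase of fatty acid ethanolamides), Fmnl1 (a formin that builds actin filaments), Enkd1, Slc25a39 (a carrier of glutathione into mitochondria), Selenow (a small selenoprotein abundant in muscle), Ptn (the growth factor pleiotrophin) and Hoxc10 (a homeobox factor). Slc25a39 was at 94.0, 133 and 117 CPM with H2O2 and at 156, 148 and 145 CPM with gRc + H2O2, above the vehicle libraries at 63.0, 91.9 and 89.8 CPM. Selenow was at 51.6, 67.3 and 60.1 CPM with H2O2 and at 71.6, 76.0 and 78.6 CPM with gRc + H2O2, again above vehicle at 47.8, 59.8 and 46.3 CPM. Both were therefore farther from vehicle with gRc than without it, in contrast to Dhrs3, Tmem252 and Pcbp3. Over the 10 genes the differences were 0.34 to 0.67 on the log2 scale with unadjusted edgeR p of 0.00426 to 0.0486, and 8 of the 10 were equivalent within 2-fold by the test described further on.

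On the lower side, Cmklr1, the receptor of the adipokine chemerin, came first among genes with average log2 CPM of at least 2. Cmklr1 (chromosome 5) was at 28.2, 19.6 and 24.8 CPM with H2O2 and at 17.3, 16.5 and 16.9 CPM with gRc + H2O2. It fell with H2O2 from 78.5, 53.2 and 50.3 CPM in vehicle, so the gRc + H2O2 libraries lay farther from vehicle than the H2O2 libraries did. The difference was -0.52 ± 0.18 (log2, SE, n = 3 against 3) with an unadjusted edgeR p of 0.0176, and the return was -39.0% (-89.2% to -7.1%). Hhat, the acyltransferase that attaches palmitate to Hedgehog proteins, lay on the same side, at 2.24, 2.82 and 2.36 CPM with H2O2 and 1.60, 1.58 and 2.04 CPM with gRc + H2O2 against 6.54 to 9.48 CPM in vehicle.

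March5, a ubiquitin ligase of the outer mitochondrial membrane, moved the other way. March5 (chromosome 19) rose with H2O2 from 88.6, 76.0 and 73.0 CPM in vehicle to 133, 118 and 134 CPM, and was at 108, 96.3 and 102 CPM with gRc + H2O2. All 3 gRc + H2O2 libraries lay between the highest vehicle and the lowest H2O2 library, at a return of 47.0% (4.1% to 88.5%) with an unadjusted edgeR p of 0.0378. The remaining genes of the lower side were Slc31a2 (a copper transporter), Dstyk (a dual-specificity kinase), Nit2 (an omega-amidase), Taz on chromosome X (tafazzin, which remodels cardiolipin of the inner mitochondrial membrane), Hey1 (a repressor induced by Notch) and the processed pseudogenes Gm18537 and Gm7901. The pseudogenes can share reads with the genes they were copied from, and Gm18537 varied from 4.00 to 18.1 CPM among the H2O2 libraries alone. Without Gm18537 (-2.04), the lower differences were 0.30 to 0.91 in size on the log2 scale, and 7 of the 10 genes were equivalent within 2-fold. These 20 genes had the smallest p among 813 higher and 869 lower genes without overlap that averaged a log2 CPM of 2 or more. They were picked by that p, so their separation is a description. The same holds for their returns and intervals, which use the difference that picked the genes.

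**Figure D2:**
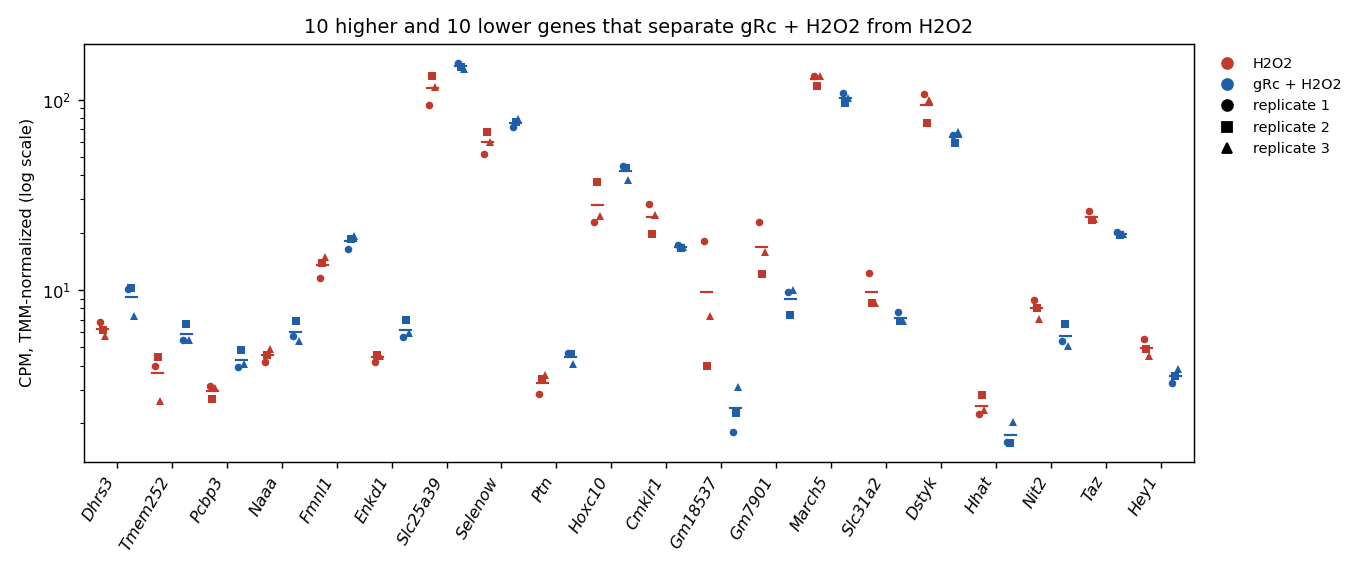
TMM-normalized CPM (log scale) of separating genes in the 3 H2O2 (red) and the 3 gRc + H2O2 (blue) libraries. Shown are the 10 higher and the 10 lower genes without overlap that had the smallest unadjusted edgeR p. Only genes with average log2 CPM of at least 2 were considered. Bars mark the group means, and the shape gives the replicate number. The distance between the groups is small for most genes, 0.30 to 0.67 on the log2 scale apart from Gm7901 (-0.91) and Gm18537 (-2.04).

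The genes that passed in DESeq2 or voom were 5 weakly expressed ones. The processed pseudogene Gm7645 had 24, 23 and 20 fragments in the H2O2 libraries and 0 in each gRc + H2O2 library, which is at least 26.7-fold lower when 3 counts are allowed over the group. Gm21182, another processed pseudogene, had 0 in each H2O2 library and 30, 24 and 15 with gRc + H2O2. That is at least 19.4-fold higher by the same floor. The antisense transcript Gm20463 had 0 in each H2O2 library and 45, 26 and 0 with gRc + H2O2, so its groups overlapped. It also varied within vehicle, at 0, 0 and 3.96 CPM, and no fold is given for it. The long noncoding RNA Miat had 20, 18 and 20 fragments with H2O2 and 6, 8 and 6 with gRc + H2O2, a difference of -1.77 ± 0.38 (log2, SE), and Gm37206, a gene model of provisional type, had 68, 45 and 44 against 17, 13 and 8. Pseudogenes and antisense genes share reads with near copies or opposite strands, and whether strand was used in counting is unknown, so these counts are uncertain. In edgeR their unadjusted p were 0.000156 for Gm7645, 0.00779 for Gm21182, 0.106 for Gm20463, 0.000665 for Miat and 0.000836 for Gm37206.

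The size of rescue at the RNA level was then read from the genes that H2O2 itself changed. H2O2 against vehicle changed 2323 of 14838 genes (15.7%) at an adjusted p under 0.05, of which 1159 (7.81%) rose and 1164 (7.84%) fell. For each of them the gRc + H2O2 level was tested against the midpoint of the vehicle and H2O2 levels, that is, against a return of 50%. On the H2O2 side of the midpoint lay 220 genes (9.47%), 155 that rose and 65 that fell, and 0 lay on the vehicle side. Without adjustment the numbers were 1421 and 0. The fitted value was beyond the midpoint for 29 of the 2323 genes, and 2103 could not be placed on either side.

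The precision of the return grew with the size of the H2O2 change. Among genes changed 4-fold or more, 61 of 208 (29.3%) were placed on the H2O2 side, against 132 of 854 (15.5%) changed 2-fold to 4-fold and 27 of 1261 (2.14%) changed less. The median half-width of the 95% interval of the return was 37.8%, 48.2% and 64.6% in these classes. For single genes without adjustment, the interval ended below 50% for 1426 genes and below 100% for 2265, and it began above 0% for 21. The H2O2 libraries enter both the H2O2 change and the return. The count of 220 depended on the libraries. When 1 of the 6 libraries was left out, it was between 25 (without gRc + H2O2 replicate 2) and 93 (without H2O2 replicate 2). In each of these fits 0 genes lay on the vehicle side. The fit without vehicle replicates 1 and 3 and gRc replicate 3 leaves 1 vehicle library. Its count is listed only with the alternatives, and no conclusion is drawn from it.

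The 12 stress genes with the largest rise showed no return distinct from 0%. With H2O2 they rose by 2.18 to 4.33 on the log2 scale, and every H2O2 and gRc + H2O2 library was above every vehicle library for all 12. The H2O2 and gRc + H2O2 libraries overlapped for all 12. Of these genes, 11 were placed on the H2O2 side of the midpoint, and Trib3 was not placed. Of all 141 genes that rose 4-fold or more, 50 (35.5%) were placed there. The median return was -0.107%, and the upper end of the 95% interval was 35.1% or lower for all 12 and under 25% for 10 of them.

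Gdf15, a secreted stress cytokine of muscle, gave the narrowest limit. It was at 4.44, 5.05 and 5.35 CPM in vehicle, at 111, 92.8 and 96.3 CPM with H2O2 and at 90.2, 96.8 and 107 CPM with gRc + H2O2. The gRc + H2O2 libraries spanned the same range as the H2O2 libraries, and the return was 0.7% (-6.2% to 7.2%). Atf3, a factor induced by ATF4, was at 73.5, 67.5 and 72.5 CPM with H2O2 and at 62.1, 64.3 and 88.7 CPM with gRc + H2O2, from 4.33 to 5.26 CPM in vehicle. Its return was -0.3% (-10.9% to 9.4%). Ddit3, which encodes CHOP, was at 104, 83.2 and 90.9 CPM with H2O2 and at 86.3, 83.5 and 116 CPM with gRc + H2O2, a return of -1.6% (-21.0% to 14.6%). In all 3 genes gRc + H2O2 replicate 3 was the highest of its group.

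Other members of the ATF4 program gave similar limits. Ppp1r15a, the phosphatase subunit that restores translation, returned by -1.6% (-16.5% to 11.4%), the cysteine-producing enzyme Cth by -4.3% (-19.0% to 8.4%) and the mTORC1 inhibitor Sesn2 by -3.3% (-26.6% to 15.5%). Trib3, a pseudokinase induced by CHOP, had the widest room for a return among the 12. It was at 265, 155 and 220 CPM with H2O2 and at 147, 127 and 167 CPM with gRc + H2O2, from 28.4, 12.1 and 9.99 CPM in vehicle. The groups overlapped through H2O2 replicate 2, and the return was 14.6% (-9.8% to 35.1%).

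Among NRF2 targets, Hmox1, which degrades heme, was at 221, 334 and 270 CPM with H2O2 and at 332, 432 and 363 CPM with gRc + H2O2, against 59.8 CPM or less in vehicle. The groups overlapped by a small margin, and the return was -15.6% (-53.8% to 11.2%), so the fitted level was farther from vehicle with gRc. Srxn1 (sulfiredoxin, which repairs oxidized peroxiredoxins) and Txnrd1 (thioredoxin reductase) returned by 1.1% (-9.9% to 11%) and 0.1% (-18.6% to 15.8%). Gsta4, a glutathione transferase for lipid peroxidation products, was at 257, 172 and 183 CPM with H2O2 and at 179, 144 and 175 CPM with gRc + H2O2, a return of 8.1% (-11.9% to 25.1%). Fosl1, an AP-1 subunit, returned by 3.9% (-16.7% to 21.1%).

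**Figure D3:**
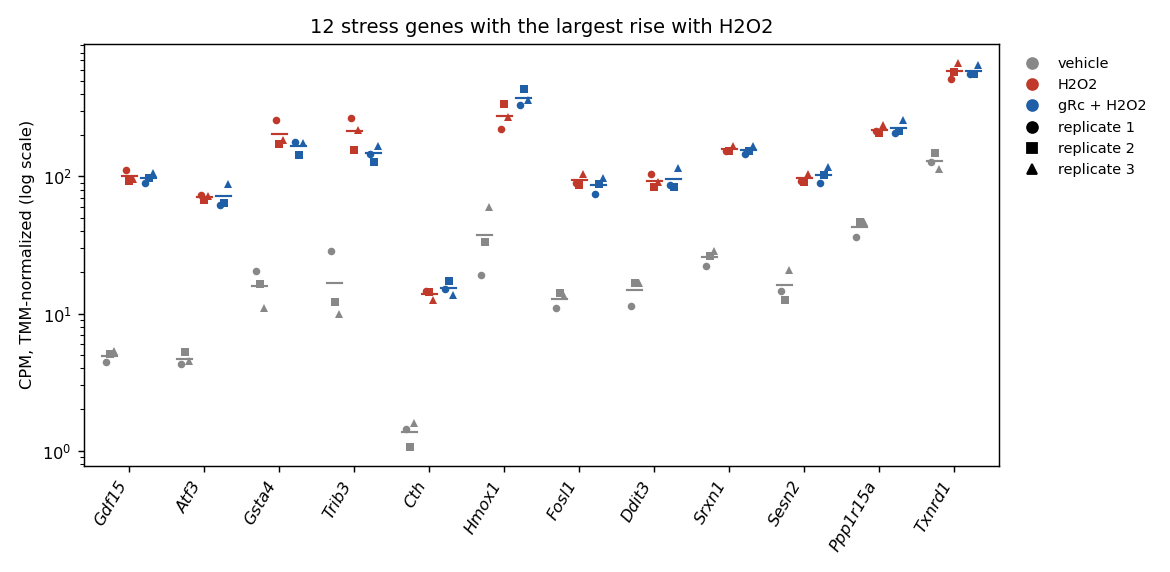
TMM-normalized CPM (log scale) of the 12 stress genes with the largest rise with H2O2, in the vehicle (grey), H2O2 (red) and gRc + H2O2 (blue) libraries, with bars at the group means and a shape for each replicate number. For each gene the H2O2 and gRc + H2O2 points overlap and all lie above the 3 vehicle points.

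**Figure D4:**
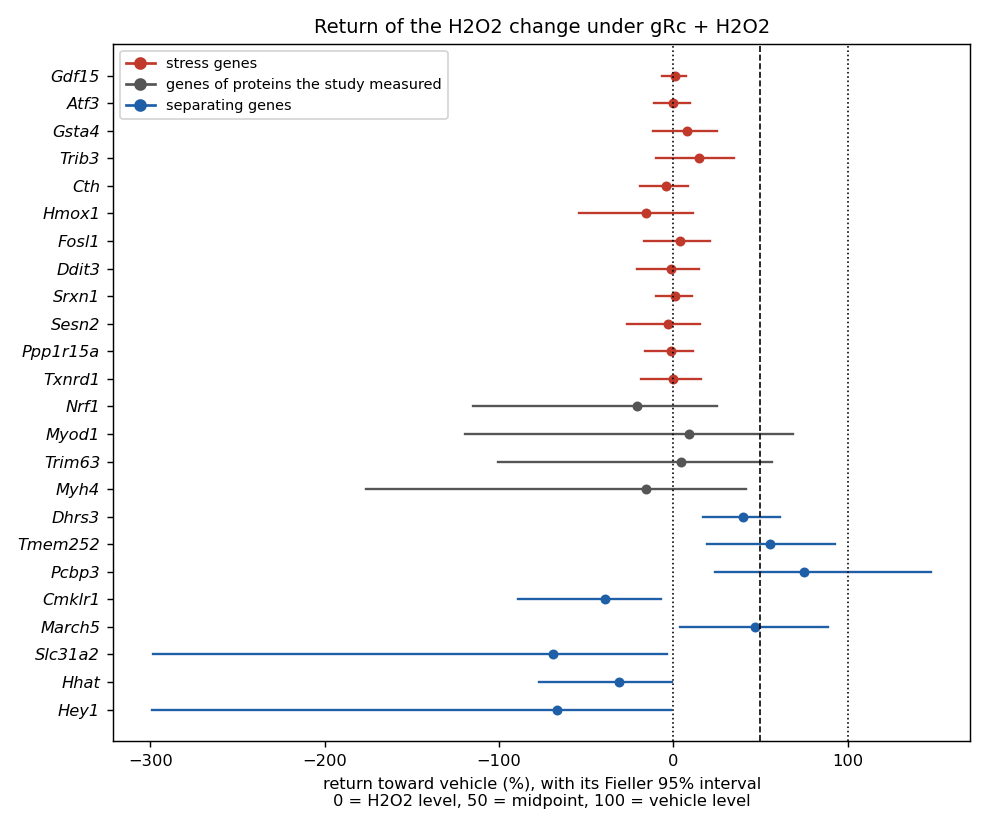
Return toward vehicle in percent (points) with its Fieller 95% interval (lines) for the 12 stress genes (red), for Nrf1, Myod1, Trim63 and Myh4 (grey) and for the 8 separating genes that H2O2 changed (blue). Dotted lines mark the H2O2 level (0%) and the vehicle level (100%), and the dashed line marks the midpoint (50%). The intervals of all 12 stress genes end at or below 35.1%. The separating genes were picked by the difference that enters the return, so their intervals are a description.

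Over the whole stress lists, the genes that could be placed were on the H2O2 side. Of 29 integrated stress response genes, 25 rose with H2O2, and 13 of these were placed on the H2O2 side and 0 on the vehicle side. Of 31 p53 targets 20 rose, with 7 on the H2O2 side, and of 28 NRF2 targets 16 rose, with 8 on the H2O2 side. Over all genes, 1159 (7.81%) rose, of which 155 (13.4%) were on the H2O2 side. The share was 2.71% for rises under 2-fold, 22.6% for 2-fold to 4-fold and 35.5% for 4-fold and over. Placement thus went with the size of the rise, and the part of list membership was not tested. The p53 genes placed there, named after their values were seen, included Ccng1 and Plk2, which act in cell cycle arrest, and Zmat3. Over the 3 lists together, 59 genes rose, the median return was -0.16%, and the 95% interval of the single gene ended below 50% for 47 of them and below 100% for 59. Among all 1159 genes that rose, the interval ended below 50% for 747 and below 100% for 1137. No member passed the test between gRc + H2O2 and H2O2, in a background of 0 among all genes, and the median log2 differences were 0.04, 0.02 and -0.02 against 0.00 over all genes.

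Among genes that fell with H2O2, those of lipid synthesis had a median fitted level near that of H2O2, but most could not be placed. Of 29 sterol and fatty acid synthesis genes driven by SREBP, 20 fell, and the median return of these 20 was -0.57%, within -20.1% to 33.3%. Lss (lanosterol synthase) and Insig1 (a retention factor for SREBP) were placed on the H2O2 side, 0 genes on the vehicle side, and 18 on neither. Over all genes 1164 (7.84%) fell, of which 65 (5.58%) were placed on the H2O2 side. Lss fell from 123, 86.1 and 84.9 CPM in vehicle to 40.9, 33.8 and 37.1 CPM with H2O2 and was at 34.0, 31.8 and 33.2 CPM with gRc + H2O2. The 95% interval of the return ended below 50% for 15 of the 20 and below 100% for all 20. Among all 1164 genes that fell, these counts were 679 and 1128. Lss and Insig1 were named after their values were seen.

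The genes described next encode proteins that the study measured, and their fitted differences between the groups were small. Ppargc1a encodes the transcriptional coactivator PGC-1α of mitochondrial biogenesis, and it was near the lower limit of counting, with 6, 20 and 10 fragments in the H2O2 libraries and 12, 15 and 14 in the gRc + H2O2 libraries. Its levels were 0.280, 0.678 and 0.414 CPM against 0.40, 0.473 and 0.528 CPM, and the difference, 0.01 (-1.02 to 1.03) on the log2 scale, was placed within 2-fold (adjusted p = 0.043) by the equivalence test on the edgeR estimates given at the end. That placement was narrow, and the difference was -0.24 without H2O2 replicate 1 and 0.40 without H2O2 replicate 2. Nrf1, a factor for nuclear genes of mitochondrial proteins, rose with H2O2 and was at 26.2, 29.6 and 27.6 CPM with H2O2 and at 30.4, 29.7 and 30.8 CPM with gRc + H2O2. The groups did not overlap, but the difference was 0.12 (-0.18 to 0.43) and was equivalent within 1.5-fold.

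Myod1, the factor that commits cells to muscle, fell with H2O2 and was at 131, 125 and 145 CPM with H2O2 and at 141, 131 and 141 CPM with gRc + H2O2, a difference of 0.05 (-0.30 to 0.39). Fbxo32 and Trim63 encode MAFbx and MuRF1, the ubiquitin ligases of muscle atrophy. Fbxo32 was at 74.1, 80.6 and 86.1 CPM against 70.5, 69.9 and 78.3 CPM, and Trim63, which rose with H2O2, at 51.3, 45.6 and 56.6 CPM against 44.6, 45.6 and 60.6 CPM. The groups overlapped for Myod1, Fbxo32 and Trim63, and all 3 were equivalent within 1.5-fold. Of the 6 myosin heavy chains, Myh3 (the embryonic form) was at 3273, 2676 and 3472 CPM with H2O2 and at 2321, 2288 and 3417 CPM with gRc + H2O2, and Myh1, a fast form, at 1594, 1237 and 1589 CPM against 1149, 1113 and 1595 CPM. All 6 overlapped between the groups, all were equivalent within 2-fold, and 5 had a fitted difference below 0, with a range of -0.23 to 0.06 on the log2 scale.

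The 13 mRNAs of the mitochondrial genome, which encode core subunits of the respiratory chain, had the largest median difference of the 20 lists, and the least certain. All 13 were fitted higher with gRc + H2O2, by 0.46 to 2.16 on the log2 scale with a median of 1.16, and the groups of all 13 overlapped. Their share of all counts was 0.0823%, 0.167% and 0.0692% in the H2O2 libraries and 0.254%, 0.401% and 0.119% in the gRc + H2O2 libraries. gRc + H2O2 replicate 3 was below H2O2 replicate 2. In vehicle the share ran from 0.0576% through 0.624% to 4.30%, a spread far wider than the difference. These mRNAs are cut from shared precursors and were read in the same libraries, so their common direction is not 13 separate observations.

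The light-strand gene mt-Nd6 had the smallest p of the 13. It was at 15.7, 37.6 and 18.5 CPM with H2O2 and at 59.2, 63.2 and 26.9 CPM with gRc + H2O2, from 71.5, 292 and 580 CPM in vehicle. Its difference was 1.05 (-0.50 to 2.60) with an unadjusted edgeR p of 0.167, and its return was 28.4% (-17.5% to 64.8%). mt-Co1, a subunit of cytochrome oxidase, was at 324, 809 and 327 CPM with H2O2 and at 1131, 1644 and 595 CPM with gRc + H2O2. None of the 13 was equivalent within 2-fold. For the 12 with a bounded interval, the 95% interval of the return held both 0% and 50%. Mitochondrial rRNA, of which poly(A) selection leaves a part, took 0.715%, 1.93% and 0.939% of counts with H2O2 and 2.13%, 2.75% and 1.56% with gRc + H2O2, again with an overlap, against 0.0427% to 0.222% in vehicle.

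The nuclear genes of the respiratory chain and ATP synthase gave no common direction. Of 79 subunits, 0 passed, 43 were fitted above 0, and the median difference was 0.03 on the log2 scale within -0.94 to 1.14. The groups did not overlap for 7 higher and 9 lower subunits (8.86% and 11.4%, against 7.69% and 7.62% of all genes). Atp5g3, a subunit of the ring of ATP synthase, was at 341, 200 and 186 CPM with H2O2 and at 161, 148 and 160 CPM with gRc + H2O2. Ndufb2, a subunit of complex I named after its values were seen, was higher, at 8.44, 11.7 and 8.11 CPM against 13.2, 12.4 and 13.7 CPM. H2O2 changed 0 of the 79 against vehicle, so no return could be read from them. Only 39 of the 79 (49.4%) were equivalent within 2-fold, against 68.7% of all genes.

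Other lists held more genes without overlap on 1 side than the background, with 0 members past the test. Among 27 AP-1 and immediate early genes, 6 (22.2%) were higher in every gRc + H2O2 library and 1 (3.7%) was lower, against 7.69% and 7.62% of all genes. Nr4a3, an orphan nuclear receptor, was at 5.08, 6.68 and 5.87 CPM with H2O2 and at 7.44, 9.12 and 9.13 CPM with gRc + H2O2, a difference of 0.54 (-0.09 to 1.17). Nr4a2, a related receptor, was at 4.01, 6.24 and 4.51 CPM against 7.07, 6.94 and 7.69 CPM. Myc, a growth factor-induced regulator named after its values were seen, was at 109, 144 and 132 CPM against 152, 169 and 159 CPM. Nr4a3 and Myc rose with H2O2 and were placed on the H2O2 side. Both were higher still with gRc + H2O2, and so lay farther from vehicle than with H2O2 alone.

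Among 29 chaperones, 6 (20.7%) were lower in every gRc + H2O2 library and 3 (10.3%) higher, against 7.62% and 7.69% of all genes, with a median difference of -0.14. Hspb8, a small heat shock protein of muscle, rose with H2O2 and was at 750, 524 and 623 CPM with H2O2 and at 406, 429 and 494 CPM with gRc + H2O2, from 406, 270 and 225 CPM in vehicle. Its difference was -0.51 (-1.06 to 0.04), with an unadjusted edgeR p of 0.0658 and a return of 47.7% (-4.9% to 98.7%). Hspa8, the constitutive HSP70 chaperone named after its values were seen, went the other way, at 1357, 1611 and 1283 CPM with H2O2 and 1802, 1830.5 and 1617 CPM with gRc + H2O2.

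Among 31 tested extracellular matrix genes, 7 (22.6%) were lower in every gRc + H2O2 library and 0 higher, against 7.62% and 7.69% of all genes, with a median difference of -0.17. Sparc, a collagen-binding matrix protein, was at 5632, 3219 and 4243 CPM with H2O2 and at 2888, 2486 and 3177 CPM with gRc + H2O2, a difference of -0.61 (-1.43 to 0.20). Tnc (tenascin C) was at 753, 515 and 639 CPM against 450, 444 and 491 CPM. H2O2 replicate 1, the library farthest along the first principal component, was the highest of the 6 for Sparc and Tnc. The summed fibroblast markers were at 307, 450 and 327 CPM with H2O2 and at 433, 506 and 386 CPM with gRc + H2O2, with overlapping ranges, and their part in the levels of the matrix genes was not tested.

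Of 23 tested enzymes that remove H2O2 and superoxide, 3 (13.0%) were higher and 3 (13.0%) lower without overlap, against 7.69% and 7.62% of all genes, and 0 passed. Gpx1, the cytosolic glutathione peroxidase, was at 175, 112 and 110 CPM with H2O2 and at 82.5, 96.0 and 92.0 CPM with gRc + H2O2, a difference of -0.56 (-1.14 to 0.03). Cat, the peroxisomal catalase, was at 45.9, 62.1 and 51.6 CPM against 71.0, 87.1 and 61.6 CPM, and overlapped. Of the BCL2 family and caspase genes, 0 of 31 passed, 11 were fitted above 0 and the median was -0.04. Bax, which opens the outer mitochondrial membrane in apoptosis, was at 231, 125 and 180 CPM with H2O2 and at 119, 98.6 and 149 CPM with gRc + H2O2, a difference of -0.55 (-1.43 to 0.32).

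The lists of muscle structure and differentiation were close to 0. The 53 sarcomere genes had a median of -0.14, with 20 fitted above 0. Of the 53, 40 (75.5%) were equivalent within 2-fold, against 68.7% of all genes. The 25 tested myogenic and fusion genes had a median of 0.04, and the 24 atrophy and FOXO genes -0.02. Mymk, the membrane protein of myoblast fusion, was at 322, 520 and 435 CPM with H2O2 and at 595, 631 and 588 CPM with gRc + H2O2, without overlap, a difference of 0.50 (-0.25 to 1.26). Over the 20 lists 19 medians lay within 0.2 of 0 on the log2 scale. Among the 620 different list genes tested, 1 had an unadjusted edgeR p under 0.05, Dhrs3 of the nuclear receptor targets. Over all genes the count was 122 of 14838 (0.822%), so the lists were not richer in such genes.

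**Figure D5:**
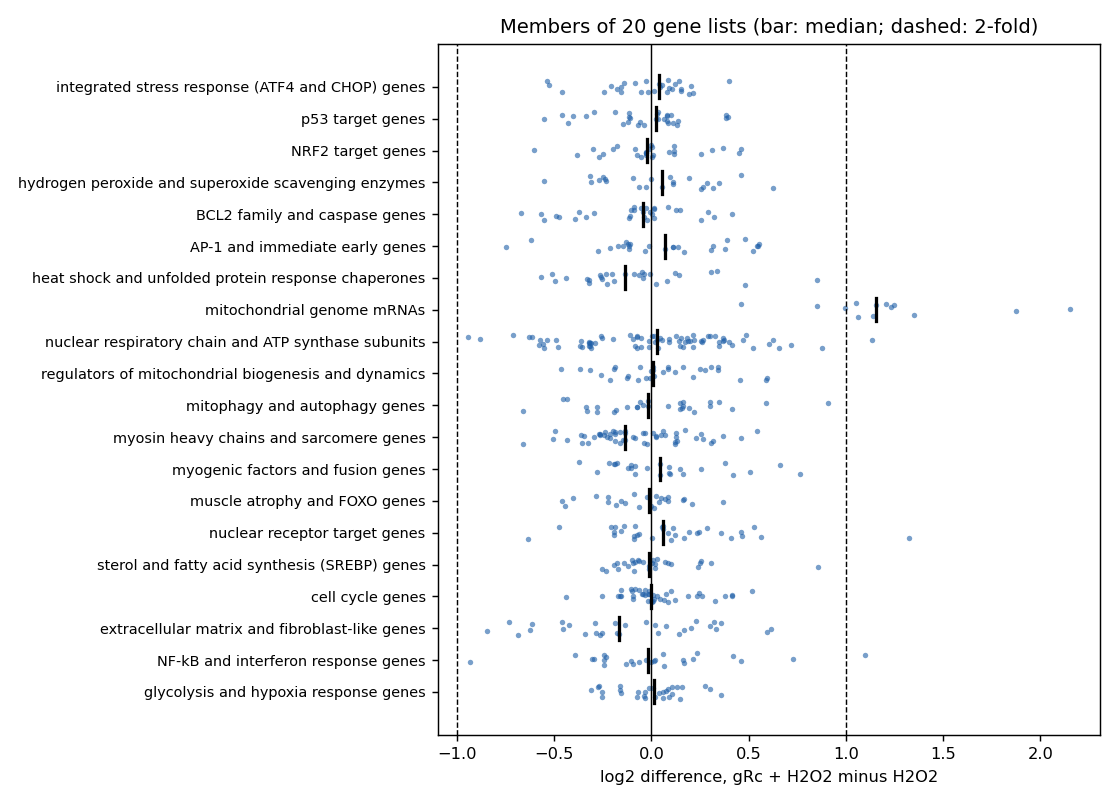
Log2 difference between gRc + H2O2 and H2O2 (x axis) of each tested member (points) of 20 gene lists (y axis), with a bar at each list's median, a line at 0 and dashed lines at 2-fold. The medians lie between -0.17 and 0.07 apart from the 13 mitochondrial genome mRNAs at 1.16.

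What the data allow for an effect of gRc on single genes follows from the width of the intervals. The median half-width of the 95% interval of the difference was 0.57 on the log2 scale (1.49-fold) over all genes. It was 0.95 for the 3996 genes averaging a log2 CPM under 2, 0.55 for those at 2 to 4, 0.46 at 4 to 6 and 0.45 at 6 and over, so greater depth per gene brought little above a log2 CPM of 4. A pair of one-sided tests on the edgeR estimates placed the difference within 2-fold for 10194 genes (68.7%) at an adjusted p under 0.05, and within 1.5-fold for 3550 (23.9%). Within 2-fold were 35.0% of the genes under a log2 CPM of 2, 73.9% of those at 2 to 4, 83.3% at 4 to 6 and 84.0% at 6 and over. The other 4644 genes could not be placed within 2-fold at this spread, which does not show that they differed.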

How the data were processed

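RNA of C2C12 myotubes was sequenced on the MGISeq platform from poly(A)-selected, strand-marked libraries with 100 bp paired-end reads. Per the labels, the authors aligned trimmed reads to GRCm38 with STAR 2.7.3a, and RSEM 1.3.3 gave the deposited expected counts, that is, unnormalized numbers of fragments for each gene. The deposited TPM values (scaled by the authors to transcript length and library) served 1 alternative. Whether strand was used in counting is not given in the sources used here. The files list 48795 genes, of which 48435 matched GENCODE M21 (GRCm38), the source of names and coordinates, and 26103 had a count. Counts of unmatched genes were 0.0209% of the total and were kept.

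Expected counts were rounded, filterByExpr of edgeR 4.0.16 (R 4.3.3) kept 14838 genes, and a quasi-likelihood model with TMM factors and no covariate was fitted on all 12 libraries (19274762 to 31409066 counts, biological coefficient of variation 0.295). CPM use the same factors. SE came from the fitted information and the moderated quasi-dispersion, and p-values were adjusted by Benjamini-Hochberg over all genes tested, with 0.05 as the threshold. Equivalence used 2 one-sided tests, and the return used Fieller's interval without adjustment. Alternatives used DESeq2 1.42.0 and limma 3.58.1, and the edgeR, midpoint and equivalence steps were tested on simulated data. The 20 gene lists, the comparison and the genes to be named were chosen with earlier results of these data known. Named were the genes of proteins the study measured, the 10 higher and 10 lower genes without overlap and with average log2 CPM of at least 2 by smallest p, up to 5 genes past the threshold in another test, the 12 stress genes with the largest rise, and the 3 members with the smallest p of each list, of which those described are a part. The result of 1 gene whose protein the study measured is not reported here. Pairs of libraries within a group differed beyond sampling noise (chi-square of 15.5 to 69.4 per gene), so each counted once.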

Additional observations from a re-analysis of the deposited data

How the results depend on the processing

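The count of genes passing between gRc + H2O2 and H2O2 stayed at 0 with other size factors, with or without a filter, without mitochondrial genes, with a correction for GC content, with the replicate block, with both, and when any of the 6 libraries was left out. It was 2 with DESeq2 and 4 with voom and quality weights. Same-numbered H2O2 and gRc + H2O2 libraries had correlated deviations of 0.0802, 0.402 and 0.309 over all genes tested, the first under the limit of 0.1, and of 0.102, 0.567 and 0.482 over genes with average log2 CPM of at least 2, all over it. Replicate 1 did not single out its own number: H2O2 replicate 1 correlated best with gRc + H2O2 replicate 3 in both sets (0.134 and 0.285), and in the second set gRc + H2O2 replicate 1 correlated best with H2O2 replicate 2 (0.177). The numbers were therefore not taken to pair the samples, a borderline choice. With the replicate block on all 12 libraries 0 genes passed (194 unadjusted). On the 6 libraries alone, a fit added after seeing the data, the block passed 1123 genes (545 higher and 578 lower), and the block with the GC correction passed 1373, whereas the 6 libraries without the block passed 0 with or without that correction. The cause was not tested.

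The count of genes without overlap, 2272, was 2696 with the GC correction and ranged from 2731 to 7136 when 1 library was left out. The count of 220 genes on the H2O2 side of the midpoint was 814 with DESeq2, 2435 with voom and quality weights (20 then lay on the vehicle side), 84 on log2(TPM + 0.5), 122 with no filter, 136 on the 9 libraries without the gRc group, 681 without vehicle replicates 1 and 3 and gRc replicate 3, and 25 to 93 when 1 library was left out. In the fit without vehicle replicates 1 and 3 and gRc replicate 3, the vehicle level rests on 1 library. No conclusion is drawn from its midpoint count. The count within 2-fold, 10194 in the main fit, was 3550 at the 1.5-fold margin and 7956 to 9413 when 1 library was left out. It was 9406 of 25926 genes with no filter. Higher counts came from the 6 libraries alone (12486 of 14283), voom with quality weights (12406 of 14838) and log2(TPM + 0.5) (11187 of 14838). The median return of the 12 stress genes was recomputed only with libraries left out, and it then stayed within -1.92% to 3.82%. It was not recomputed with another test, scaling, filter or correction.

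None of the 101 named genes passed in edgeR, so their values were read against the spread between replicates. Of 2197 values under 22 alternatives, 66 moved by more than that spread and 65 had the other sign, in 14 genes (among them Gdf15, Atf3, Ddit3, Srxn1, Txnrd1, Ppargc1a and Trim63). Depth limited the genes under a log2 CPM of 2, of which 35.0% were placed within 2-fold.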

Other observations

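The remaining lists gave further values without a gene past the edgeR test. Of 41 tested cell cycle genes, 12 fell and 3 rose with H2O2, against 7.84% and 7.81% of all genes. Between gRc + H2O2 and H2O2 their median difference was 0.00 on the log2 scale. Equivalent within 2-fold were 37 (90.2%), against 68.7% of all genes. Bub1, a kinase of the spindle checkpoint, was at 4.71, 5.29 and 5.01 CPM with H2O2 and at 7.70, 8.43 and 5.36 CPM with gRc + H2O2, above each H2O2 library but by little in replicate 3. Cdk1, the kinase that drives mitosis, was at 12.4, 14.9 and 11.2 CPM against 18.1, 18.2 and 13.8 CPM and overlapped. Of 30 glycolysis and hypoxia genes, 29 (96.7%) were equivalent within 2-fold, against 68.7% of all genes, and the list median was 0.01. Bnip3, a mitophagy receptor induced by hypoxia, was at 36.1, 54.1 and 40.4 CPM with H2O2 and at 50.7, 54.7 and 55.5 CPM with gRc + H2O2.

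Of 33 tested targets of nuclear receptors, 3 (9.09%) were higher and 1 (3.03%) lower without overlap, near or under the 7.69% and 7.62% of all genes, and 0 passed. Klf9, a factor induced by glucocorticoids, rose with H2O2 and was at 38.2, 56.0 and 50.8 CPM with H2O2 and at 64.4, 71.7 and 64.5 CPM with gRc + H2O2, against 14.3, 22.7 and 32.6 CPM in vehicle. Crabp2, a carrier of retinoic acid, was at 201, 119 and 144 CPM against 101, 90.0 and 108 CPM, lower in each gRc + H2O2 library. Of 26 tested NF-kB and interferon response genes 0 passed, with a median of -0.02.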
